A study of Sus scrofa with 12 samples.

Results

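Ionotropic and metabotropic glutamate receptors, glutamate transporters and the postsynaptic scaffolds that hold the receptors were followed in RNA sequencing of newborn pig striatum. A list of 39 gene names was matched to the names in the authors' deposited comparison table. Of these, 37 were found and 2, GRIN1 and SHANK1, were not. The 37 genes stand among 25880 in the count table and were read by their Ensembl identifier. The series holds 6 DHCA piglets, which went through deep hypothermic circulatory arrest, and 6 sham piglets. DHCA piglets were anaesthetised with 4% isoflurane, put on cardiopulmonary bypass by median sternotomy and cooled to 18 °C, with an arrest of 30 min before bypass rewarmed them to 37 °C and a recovery of 6 h. Sham piglets received the 4% isoflurane alone, with no recovery time given in the labels, so surgery, bypass, cooling, arrest and recovery differ between the groups together. Each library is 1 piglet.

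Most excitatory input to the striatum comes from the cortex and the thalamus, whose axons release glutamate onto the inhibitory spiny projection neurons. AMPA receptors carry the fast current, NMDA receptors admit calcium when glutamate and depolarisation coincide, and metabotropic receptors act through G proteins. Excess glutamate after loss of blood flow can injure neurons through these receptors, which is why striatal glutamate genes are of interest in circulatory arrest.

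Library totals were 5434652 to 9997400 counts in DHCA and 1377809 to 12933536 in sham, and Sham 1 and Sham 5 were the shallowest. Levels are given as CPM, counts per 1000000 after TMM scaling, a correction for differences in library composition. The library labelled Sham 4 stood apart. Its summed level of 18 spiny projection neuron markers was 526 CPM, against 3987 to 7863 CPM in DHCA and 5036 to 9360 CPM in the remaining sham libraries, and 0 of the 18 were at 0 counts. DRD1, the D1 dopamine receptor gene of spiny neurons, was at 1.14 CPM there, against 209 to 369 CPM in DHCA and 204 to 353 CPM in the other sham libraries. The sum of 10 cortical excitatory neuron markers was 443 CPM in Sham 4, against 174 to 226 CPM in DHCA and 124 to 225 CPM in the other sham libraries. Of these 10 genes, 7 were higher in Sham 4 than in every other library, CUX2 and RORB lay within the range of the others, and LAMP5 was lowest in Sham 4, at 32.4 CPM. The transcription factor gene NEUROD6 had 122 CPM in Sham 4 and at most 0.82 CPM in DHCA and 1.33 CPM in the other sham libraries. The fold changes are therefore given with and without Sham 4.

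No glutamate gene passed the test for a difference between DHCA and sham. Of the 37 genes, 35 passed the filter on low counts, and 0 of these 35 had an edgeR adjusted p under 0.05, where 0.186% of all 14004 tested genes did. GRIN2C and SLC17A6 had too few counts to be tested. Limma-voom with sample quality weights also called 0 of the 35, against 1.48% of all genes. The DESeq2 Wald test called 0 of the 37, against 1.24% of all genes with an adjusted p, but gave no adjusted p for GRIN2A and SLC17A7, which it therefore did not assess. At an unadjusted p under 0.05, edgeR gave 3 genes (SLC17A7, CACNG2 and GRIN2A, all with negative fold changes), DESeq2 gave 2 and limma-voom gave 2. Across all genes 7.9% reached that level in edgeR, 7.42% in DESeq2 and 12.8% in limma-voom. Log2 fold changes are DHCA minus sham throughout. Their median was -0.013 over the 35 genes and -0.0030 over all tested genes, with 17 positive and 18 negative among the 35. In 0 of the 35 did DHCA and sham levels fail to overlap, against 0.993% of all tested genes.

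Without Sham 4, 36 of the glutamate genes were tested and again 0 were called by edgeR, with 1 gene, GRM8, at an unadjusted p under 0.05. The background without that library was 0.0708% called, 7.12% at an unadjusted p under 0.05 and 1.27% with levels that did not overlap, and the glutamate genes again gave 0 on the last measure. The 95% interval of the fold change lay within a 2-fold change in either direction for 28 of these 36 genes (77.8%, against 68.9% of all genes), and for 23 of 35 with all libraries (65.7%, against 71.5%). For the remaining genes a 2-fold difference was not excluded at this depth and spread. In bulk tissue, fewer cells of a type and less RNA per cell cannot be told apart.

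**Figure D1:**
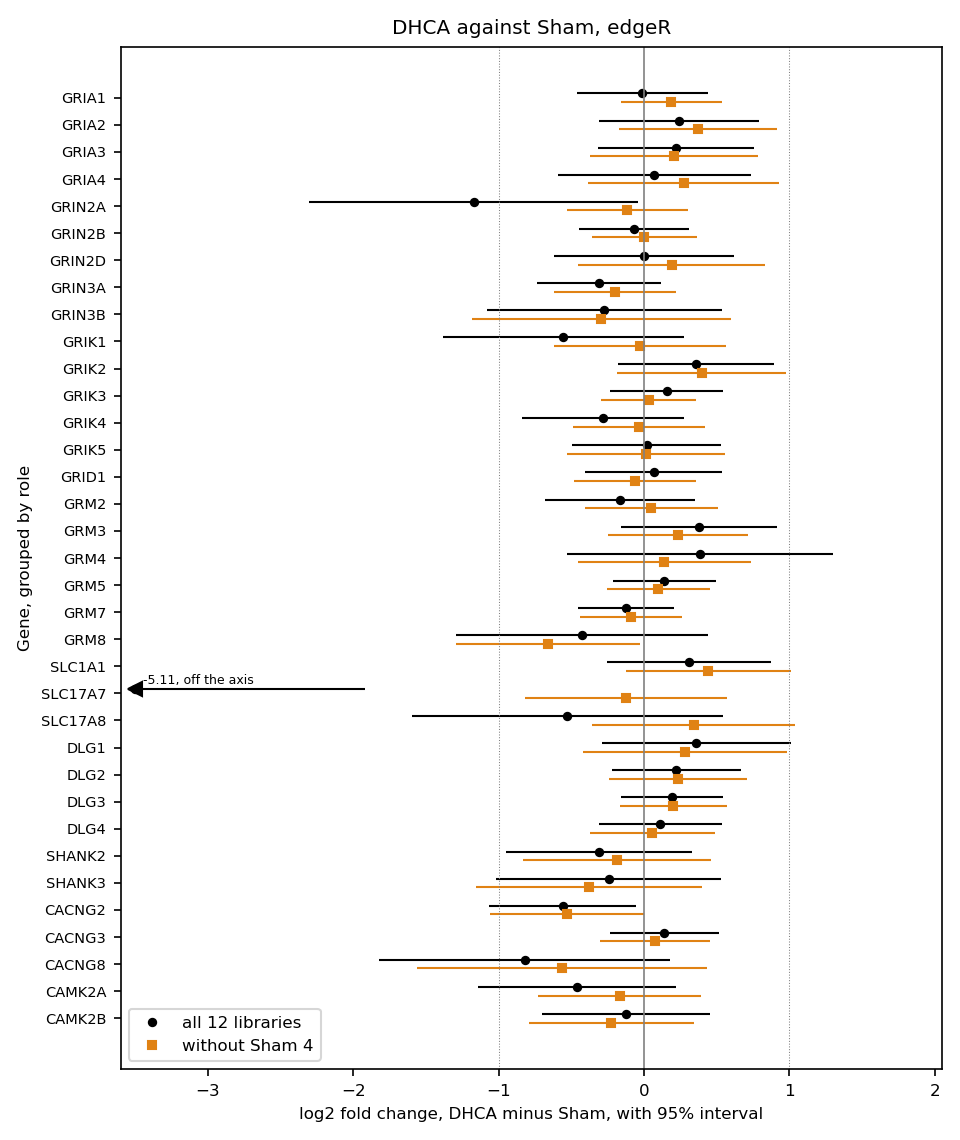
Log2 fold change (DHCA minus Sham, x axis) of each tested glutamate gene with its 95% interval, from edgeR, with all 12 libraries (black circles) and without Sham 4 (orange squares). Dotted lines mark 2-fold changes. SLC17A7, at -5.11, lies off the axis with all libraries and at -0.12 without Sham 4.

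To compare genes with each other, levels were divided by exonic length, as CPM per kb. The highest in DHCA were the kinase genes CAMK2B, at 153 ± 48.6 CPM per kb, and CAMK2A, at 135 ± 41.5 CPM per kb (SD, n = 6). In the 5 sham libraries other than Sham 4 they had 177 ± 61.4 and 151 ± 43.2 CPM per kb (SD, n = 5), so both genes differ from each other by less than their spread in either group. Next in DHCA came DLG4 at 79.4 ± 19.3, GRIA1 at 77.3 ± 5.60 and GRM5 at 72.2 ± 13.7 CPM per kb (SD, n = 6). DLG4, GRIA1 and GRM5 had 75.8 ± 12.3, 67.3 ± 14.03 and 67.0 ± 9.20 CPM per kb in sham without Sham 4 (SD, n = 5), in the same order and again within their spread. At the other end in DHCA, the vesicular transporter gene SLC17A6 was lowest, at 0.045 ± 0.021 CPM per kb. The receptor genes GRIN2C, GRIN3B and GRM2 followed, at 0.321, 0.590 and 0.647 CPM per kb, and averaged under 1 CPM per kb in both groups. Above them came the vesicular transporter genes SLC17A8 at 0.753 ± 0.242 and SLC17A7 at 1.39 ± 0.462 CPM per kb in DHCA.

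**Figure D2:**
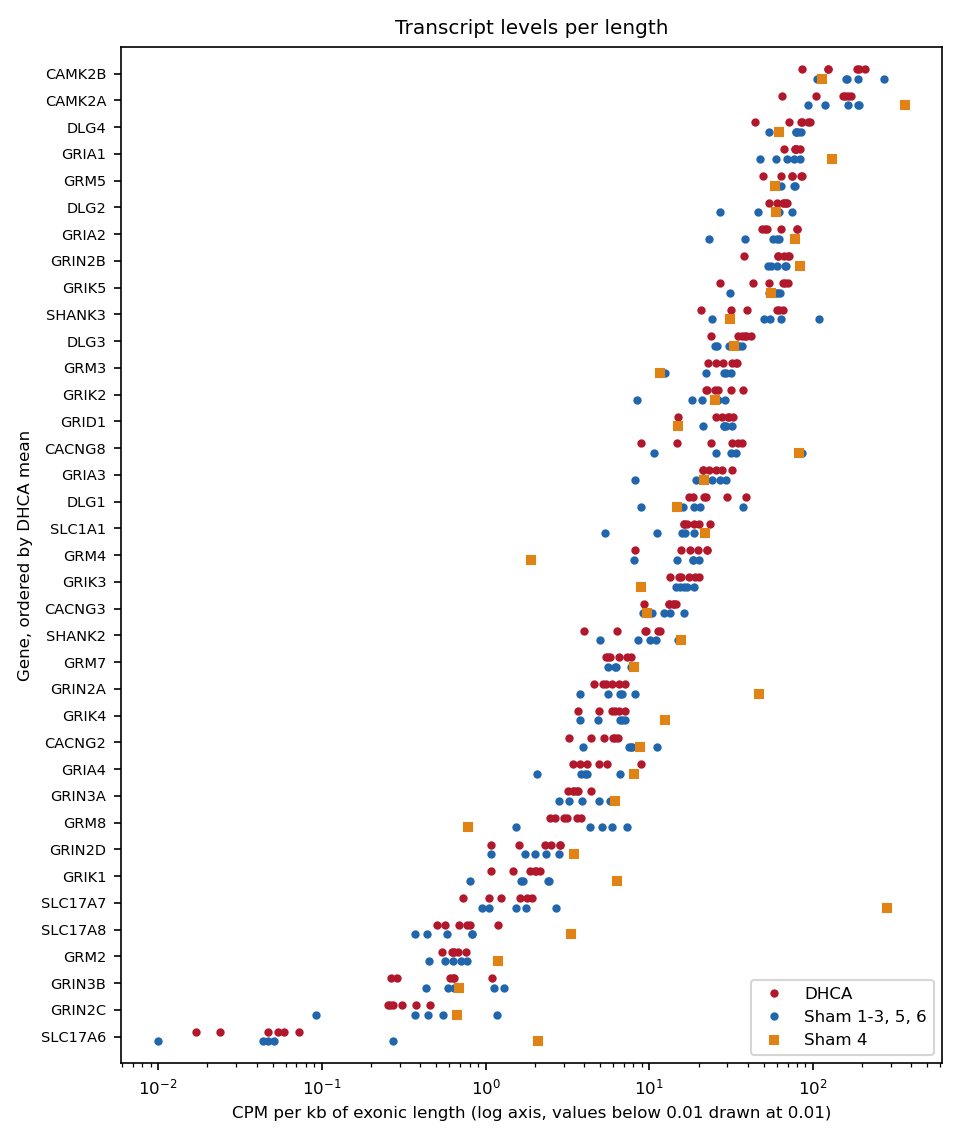
CPM per kb of exonic length (log x axis) of the 37 glutamate genes in every library, ordered by the DHCA mean, with DHCA in red, sham in blue and Sham 4 as an orange square. DHCA and sham points lie over each other across the range, while Sham 4 departs from both for SLC17A7, GRIN2A and GRM4 among others.

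AMPA receptor genes overlapped between DHCA and sham, and 0 of the 4 passed the test. GRIA1 (chromosome 16, 69332587 to 69687855, Sscrofa11.1), which encodes the GluA1 subunit, had a lowest, median and highest level of 389, 456 and 487 CPM in DHCA and 278, 425 and 762 CPM in sham. DHCA libraries lay close together inside the sham range, whose top was Sham 4 and whose bottom was Sham 1. The log2 fold change was -0.013 (SE 0.21, 95% interval -0.46 to 0.44, edgeR adjusted p = 0.994) and 0.19 (SE 0.16, interval -0.16 to 0.54, adjusted p = 0.798) without Sham 4. GRIA2 (chromosome 8, 46078117 to 46241914) encodes GluA2, the subunit that limits calcium entry through the channel. It had 329, 393 and 541 CPM in DHCA and 156, 395 and 522 CPM in sham, again with Sham 1 lowest. Its log2 fold change was 0.24 (SE 0.26, adjusted p = 0.83), or 0.37 (interval -0.17 to 0.91) without Sham 4. GRIA3 averaged 176 ± 29.0 CPM in DHCA and 151 ± 52.7 CPM in sham, and GRIA4, the least abundant per kb of the 4, 37.2 ± 14.5 and 34.99 ± 15.8 CPM (SD, n = 6 each). GRIA3 had a log2 fold change of 0.22, and 0.21 without Sham 4, and that of GRIA4 was 0.071, and 0.27 without it. Without Sham 1 instead, the log2 fold changes were -0.12 for GRIA1, 0.085 for GRIA2, 0.047 for GRIA3 and -0.079 for GRIA4. The intervals of all 4 AMPA genes stayed within a 2-fold change, with and without Sham 4.

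**Figure D3:**
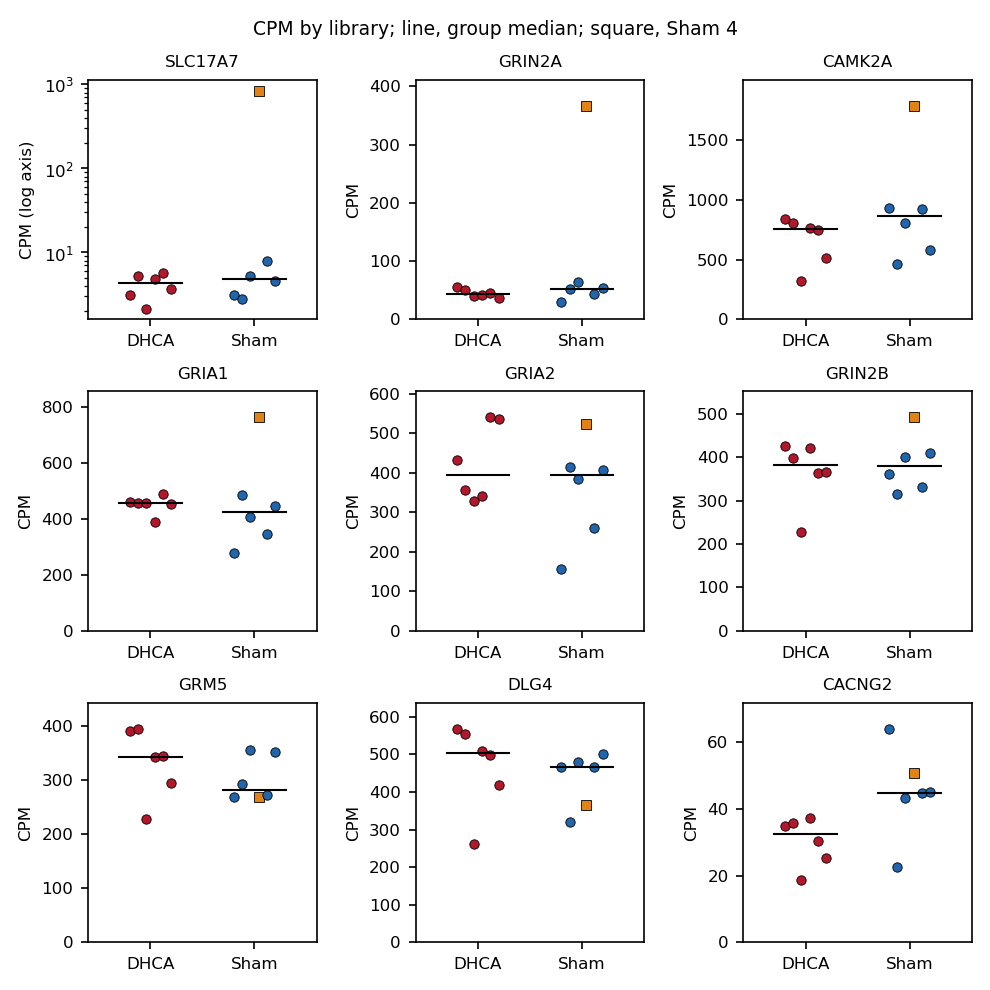
CPM of 9 glutamate genes by library in DHCA (left) and Sham (right), with the group median as a line and Sham 4 as a square. The SLC17A7 axis is logarithmic. Sham 4 reaches 838 CPM for SLC17A7 and 367 CPM for GRIN2A, far above the 11 other libraries, and the DHCA and sham points of every gene shown overlap.

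NMDA receptor genes were led by GRIN2B in both groups. GRIN2B (chromosome 5, 58480191 to 58927558) encodes GluN2B, the glutamate-binding subunit that prevails in the immature forebrain. It had a lowest, median and highest level of 227, 382 and 426 CPM in DHCA, with DHCA 3 lowest, and 316, 379.8 and 492 CPM in sham, with Sham 4 highest. Its log2 fold change was -0.069 (SE 0.18, interval -0.45 to 0.31, edgeR adjusted p = 0.932) with all libraries and 0.0030 (SE 0.17) without Sham 4. GRIN2A (chromosome 3, 32978382 to 33143379) encodes GluN2A, the subunit that increases as forebrain synapses mature. GRIN2A had 36.1, 44.3 and 55.4 CPM in DHCA and 29.5, 52.3 and 367 CPM in sham. The 5 sham libraries other than Sham 4 lay between 29.5 and 64.0 CPM and spanned the whole DHCA range. The negative log2 fold change of GRIN2A, -1.17 (SE 0.53, unadjusted p = 0.043, adjusted p = 0.608), became -0.11 (SE 0.19, interval -0.53 to 0.30) without Sham 4.

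The remaining NMDA subunit genes were low. GRIN2D, a subunit gene of early development and of interneurons, averaged 8.82 ± 2.89 CPM in DHCA and 8.97 ± 3.35 CPM in sham, with a log2 fold change of 0.00085, and 0.19 without Sham 4. GRIN3A, whose subunit reduces calcium permeability and magnesium block, averaged 30.8 ± 3.56 CPM in DHCA and 37.7 ± 11.7 CPM in sham, with a log2 fold change of -0.31 (SE 0.20, adjusted p = 0.77), and -0.20 without Sham 4. GRIN3B averaged 1.83 ± 0.937 CPM in DHCA and 2.46 ± 1.04 CPM in sham, with log2 fold changes of -0.27 and, without Sham 4, -0.29. GRIN2C, too low to test with all libraries, averaged 1.16 ± 0.289 CPM in DHCA and 2.00 ± 1.32 CPM in sham (SD, n = 6 each), and its log2 fold change without Sham 4 was -0.50 (SE 0.50, adjusted p = 0.806).

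Among the kainate receptor genes and the delta receptor gene GRID1, 0 of 6 passed the test. GRIK5 (chromosome 6, 49849238 to 49901079) encodes a high-affinity kainate subunit that needs a partner from GRIK1 to GRIK3 to form a channel, and it was the most abundant of the family per kb. Its lowest, median and highest levels were 79.1, 175 and 207 CPM in DHCA and 91.0, 168 and 184 CPM in sham. The low ends were DHCA 3 and Sham 2, and the log2 fold change was 0.018 (SE 0.24, interval -0.50 to 0.53, adjusted p = 0.992), and 0.014 without Sham 4. GRIK1 (chromosome 13, 192877727 to 193295357), a low-affinity subunit gene, had 4.15, 7.44 and 8.33 CPM in DHCA and 3.10, 7.92 and 24.6 CPM in sham. Sham 4 was the highest by far, and the log2 fold change of -0.55 (SE 0.39) was -0.029 (SE 0.27) without it. GRIK2, the most abundant low-affinity subunit gene per kb, averaged 84.4 ± 17.7 CPM in DHCA and 65.6 ± 22.7 CPM in sham (log2 difference 0.36, SE 0.25, edgeR adjusted p = 0.784), with 0.40 without Sham 4. Without Sham 1 it was 0.19. GRIK3 is a further low-affinity and GRIK4 a high-affinity subunit gene. GRIK3 averaged 53.9 ± 7.94 and GRIK4 32.9 ± 7.21 CPM in DHCA, against 48.6 ± 10.7 and 39.9 ± 17.4 CPM in sham. GRIK3 had a log2 fold change of 0.16, and 0.031 without Sham 4, and that of GRIK4 was -0.28, and -0.035 without it. GRID1, a delta receptor that organises synapses through secreted cerebellins, averaged 89.9 ± 21.2 CPM in DHCA and 86.1 ± 21.3 CPM in sham (SD, n = 6 each), with log2 fold changes of 0.066 and, without Sham 4, -0.062.

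Among metabotropic receptors, GRM5 and GRM3 were the most abundant per kb. GRM5 (chromosome 9, 21918736 to 22438208) encodes the Gq-coupled receptor mGluR5, which is strong in striatal spiny neurons. It had a lowest, median and highest level of 229, 344 and 395 CPM in DHCA and 269, 282 and 356 CPM in sham. DHCA reached both lower and higher than sham, and the log2 fold change was 0.14 (SE 0.16, interval -0.21 to 0.49, adjusted p = 0.838), and 0.098 without Sham 4. GRM3 (chromosome 9, 93731212 to 93973543), a Gi-coupled receptor gene of neurons and astrocytes, had 97.8, 129 and 147 CPM in DHCA and 49.6, 109 and 136 CPM in sham. Sham 1 and Sham 4, at 53.9 and 49.6 CPM, lay below all other libraries. The log2 fold change of GRM3 was 0.38 (SE 0.25, adjusted p = 0.777), and 0.23 (SE 0.22) without Sham 4.

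The presynaptic Gi-coupled receptor genes included the only gene at an unadjusted p under 0.05 without Sham 4. GRM8, singled out after its values were seen, had a lowest, median and highest level of 12.6, 15.6 and 19.4 CPM in DHCA and 3.98, 24.0 and 37.2 CPM in sham. Sham 4 and Sham 1, at 3.98 and 7.75 CPM, lay below every DHCA library, and the 4 other sham libraries, at 22.03 to 37.2 CPM, above every one. The log2 fold change was -0.43 (SE 0.40, edgeR adjusted p = 0.823) with all libraries. It was -0.66 (SE 0.29, interval -1.29 to -0.030, unadjusted p = 0.0413, adjusted p = 0.682) without Sham 4. Without Sham 1, Sham 4 and Sham 5 it was -0.91 (edgeR adjusted p = 0.239). The 2 groups then no longer overlapped, which follows from the values above and is no further evidence. That was the case for 3.4% of all genes among those libraries. GRM4 averaged 61.2 ± 18.8 CPM in DHCA and 47.2 ± 24.9 CPM in sham, where Sham 4 had 6.54 CPM and the other sham libraries 27.9 to 69.4 CPM. Its log2 fold change was 0.38 (adjusted p = 0.833), and 0.14 without Sham 4. GRM7 averaged 66.9 ± 10.1 CPM in DHCA and 72.8 ± 11.12 CPM in sham, and GRM2 4.56 ± 0.511 and 5.07 ± 1.81 CPM (SD, n = 6 each). GRM7 had a log2 fold change of -0.13, and -0.090 without Sham 4, and that of GRM2 was -0.16, and 0.051 without it.

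Vesicular glutamate transporters load glutamate into synaptic vesicles, and their RNA sits in the cell bodies of the neurons that release it. SLC17A7 (chromosome 6, 54511126 to 54521616) encodes VGLUT1 of cortical projection neurons. It had a lowest, median and highest level of 2.15, 4.27 and 5.71 CPM in DHCA and 2.83, 4.90 and 838 CPM in sham. The 838 CPM were those of Sham 4, 105 times the highest of the other 11 libraries, while the other sham libraries reached 7.99 CPM. The largest log2 fold change in size of all glutamate genes, -5.11 (SE 1.49, unadjusted p = 0.00404, adjusted p = 0.282), was -0.12 (SE 0.32, interval -0.82 to 0.57, adjusted p = 0.921) without Sham 4.

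SLC17A6 (chromosome 2, 37096815 to 37137777) encodes VGLUT2, which marks thalamic projection neurons. Its libraries had 1 to 3 counts each in DHCA, and 84 counts in Sham 4 against 0 to 4 in the other sham libraries. The 0 of Sham 5 allows up to 2.00 CPM there, counting error only. SLC17A8 (chromosome 5, 83741726 to 83800808) encodes VGLUT3, which in the striatum is found in cholinergic interneurons. It had 2.02, 2.93 and 4.76 CPM in DHCA and 1.48, 2.83 and 13.4 CPM in sham, again with Sham 4 at the top. Its log2 fold change was -0.53 (SE 0.50) with all libraries and 0.34 (SE 0.32, adjusted p = 0.803) without Sham 4. SLC1A1, the neuronal plasma membrane transporter, averaged 81.5 ± 12.4 CPM in DHCA and 65.2 ± 25.8 CPM in sham (SD, n = 6 each). Sham 1 was lowest at 23.3 CPM, and the log2 fold change was 0.31 (SE 0.26, adjusted p = 0.812), and 0.44 (SE 0.26, adjusted p = 0.761) without Sham 4. Without Sham 1 it was 0.135.

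Of the scaffold genes, 0 of the 6 tested passed the test, 4 with positive and 2 with negative fold changes. DLG4 (chromosome 12, 52547741 to 52573987) encodes PSD-95, the main scaffold of the postsynaptic density. It had a lowest, median and highest level of 261, 504 and 569 CPM in DHCA and 319, 466 and 502 CPM in sham. DHCA 3 and Sham 2 were the low ends, and the log2 fold change was 0.11 (SE 0.20, interval -0.31 to 0.54, adjusted p = 0.893), and 0.056 without Sham 4. DLG1 (chromosome 13, 132820911 to 133086841), whose protein takes part in AMPA receptor transport, had 133, 168 and 299 CPM in DHCA and 67.9, 133 and 284 CPM in sham. Here DHCA 3 and Sham 2 were the high ends, and the log2 fold change was 0.36 (SE 0.30, interval -0.29 to 1.01, adjusted p = 0.812), and 0.28 without Sham 4. DLG2 and DLG3 encode close relatives of PSD-95. DLG2 averaged 489.6 ± 45.3 and DLG3 97.6 ± 17.02 CPM in DHCA, against 419 ± 125 and 85.1 ± 12.8 CPM in sham. DLG2 had a log2 fold change of 0.22, and 0.24 without Sham 4, and that of DLG3 was 0.19, and 0.20 without it. Without Sham 1 that of DLG2 was 0.079. SHANK3, the scaffold beneath PSD-95 that is prominent in striatum, averaged 246 ± 98.6 CPM in DHCA and 291 ± 158 CPM in sham. It spread from 109 CPM in DHCA 3 to 347 CPM in DHCA 1, and from 127 CPM in Sham 2 to 572 CPM in Sham 1. Its log2 fold change was -0.24, and -0.38 without Sham 4. SHANK2 averaged 63.9 ± 21.9 CPM in DHCA and 79.5 ± 29.2 CPM in sham (SD, n = 6 each), with log2 fold changes of -0.31 and, without Sham 4, -0.19.

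TARP genes encode auxiliary subunits that carry AMPA receptors to the synapse and slow their closing. CACNG2 (chromosome 5, 11021966 to 11190026) encodes stargazin, the founding TARP. It had a lowest, median and highest level of 18.7, 32.6 and 37.2 CPM in DHCA and 22.6, 44.7 and 64.0 CPM in sham. All sham libraries except Sham 2 lay above all of DHCA. The log2 fold change was -0.56 (SE 0.24, interval -1.06 to -0.056, unadjusted p = 0.032, adjusted p = 0.563) and -0.53 (SE 0.25, adjusted p = 0.695) without Sham 4. Over the fits without 1 library CACNG2 ranged from -0.70 (without Sham 2, edgeR adjusted p = 0.17) to -0.44 (without Sham 1). Without Sham 2, an omission singled out after the values were seen, its 2 groups did not overlap, which follows from the values above. That was the case for 2.44% of all genes without that library. CACNG8 (chromosome 6, 56157206 to 56172240), a TARP gene that is strong in rodent hippocampus, had 14.3, 44.9 and 58.9 CPM in DHCA and 17.2, 52.5 and 137 CPM in sham. Sham 1 and Sham 4 were above every DHCA library, at 137 and 131 CPM, and the log2 fold change was -0.82 (SE 0.47, interval -1.82 to 0.18, adjusted p = 0.75), and -0.56 (SE 0.46, adjusted p = 0.796) without Sham 4. CACNG3 averaged 52.8 ± 7.78 CPM in DHCA and 47.8 ± 10.9 CPM in sham (SD, n = 6 each), with log2 fold changes of 0.14 and, without Sham 4, 0.075.

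The calcium/calmodulin-dependent kinase genes CAMK2A and CAMK2B encode the alpha and beta subunits of CaMKII, which phosphorylates AMPA receptors after calcium entry. CAMK2A (chromosome 2, 151248358 to 151308700) had a lowest, median and highest level of 318, 758 and 835 CPM in DHCA and 459, 863 and 1784 CPM in sham. Sham 4 was the highest library and DHCA 3 the lowest. The log2 fold change was -0.46 (SE 0.32, adjusted p = 0.783) and -0.17 (SE 0.26, interval -0.73 to 0.39, adjusted p = 0.861) without Sham 4. CAMK2B averaged 780.4 ± 248 CPM in DHCA and 851 ± 311 CPM in sham (SD, n = 6 each), with log2 fold changes of -0.12 and, without Sham 4, -0.22. In Sham 4, where CAMK2A was highest, CAMK2B was at 579 CPM, second lowest in the sham group.

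Within families, the share of 1 gene by reads per kb was compared with Sham 4 set aside, as a description without a test. GRIA2 made up 36.5 ± 3.97% of the 4 AMPA genes in DHCA and 33.4 ± 3.31% in the 5 sham libraries other than Sham 4 (SD, n = 6 and 5). GRIN2A made up 8.81 ± 1.80% of GRIN2A and GRIN2B together in DHCA, and 9.20 ± 2.08% in those 5 sham libraries, against 36.2% in Sham 4. CAMK2A made up 46.9 ± 4.29% of both CaMKII genes in DHCA and 46.2 ± 5.19% in those 5 sham libraries, against 76.2% in Sham 4. SLC17A7 was 62.8 ± 8.77% of the 3 vesicular transporter genes in DHCA, 68.1 ± 13.4% in those 5 sham libraries and 98.1% in Sham 4. Outside Sham 4 these shares rest on few reads, so their SD also holds counting error. SLC17A7, SLC17A6 and SLC17A8 had 8, 4 and 6 counts in Sham 1, 12, 0 and 5 in Sham 5, and 14, 2 and 18 in DHCA 3. DLG4 was 38.5 ± 7.28% of DLG1 to DLG4 in DHCA and 42.9 ± 10.5% in those 5 sham libraries.

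**Figure D4:**
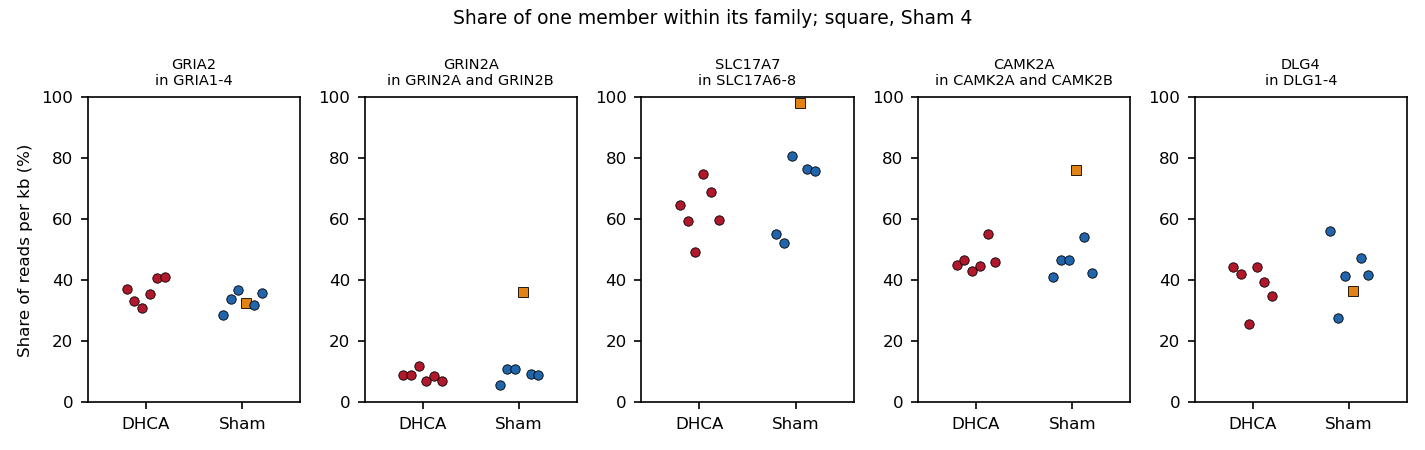
Share of one gene in its family by reads per kb (percent, y axis) in each DHCA (left) and Sham (right) library, with Sham 4 as a square. Sham 4 stands apart for GRIN2A at 36.2%, CAMK2A at 76.2% and SLC17A7 at 98.1%, and lies among the other libraries for GRIA2 and DLG4.

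Single libraries stood apart in many glutamate genes. Sham 4 lay outside the range of the 11 other libraries in 17 of the 35 tested genes (48.6%), against 21.5% of all tested genes. It was highest in 13, at least 1.5 times the next library in 8, and lowest in 4, GRIK3, GRM3, GRM4 and GRM8. GRM4, a receptor gene of the terminals of spiny neurons, was there at 0.102 times the median of the other sham libraries. DHCA 3 was the lowest library in 15 of the 35 genes (42.9%), against 14.4% of all genes, and Sham 1 was lowest in 12 (34.3%), against 31.4% of all genes. Sham 1 was also the highest library in 4 (11.4%), against 27.2% of all genes. Over all genes, Sham 1 was thus more often the extreme library than Sham 4, at either end.

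DHCA 3 and Sham 2 moved together across the groups, a pattern chosen after the values were seen. They were the lowest pair of the 12 libraries in 11 of 35 glutamate genes (31.4%), against 11.6% of all genes. These 11 were CACNG2, CACNG8, CAMK2A, CAMK2B, DLG4, GRIK5, GRIN2B, GRIN2D, SHANK2, SHANK3 and SLC17A7. In DLG1 alone they were the highest pair (2.86% of the 35, against 9.9% of all genes). The summed level of 6 oligodendrocyte markers was 66124 CPM in DHCA 3 and 4643 to 25993 CPM in the other DHCA libraries, and 33847 CPM in Sham 2 against 9639 to 28702 CPM in the other sham libraries. Spiny neuron markers summed to 3987 CPM in DHCA 3, the lowest of DHCA, and to 5036 CPM in Sham 2, the lowest of sham after Sham 4. Not every marker followed the sum in Sham 2, where DRD1, TAC1, FOXP1 and PDE10A, among others, were not the lowest after Sham 4. These named markers were higher in Sham 2 than in Sham 1 and Sham 5. The part of these cell type markers in the glutamate gene levels was not tested.

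**Figure D5:**
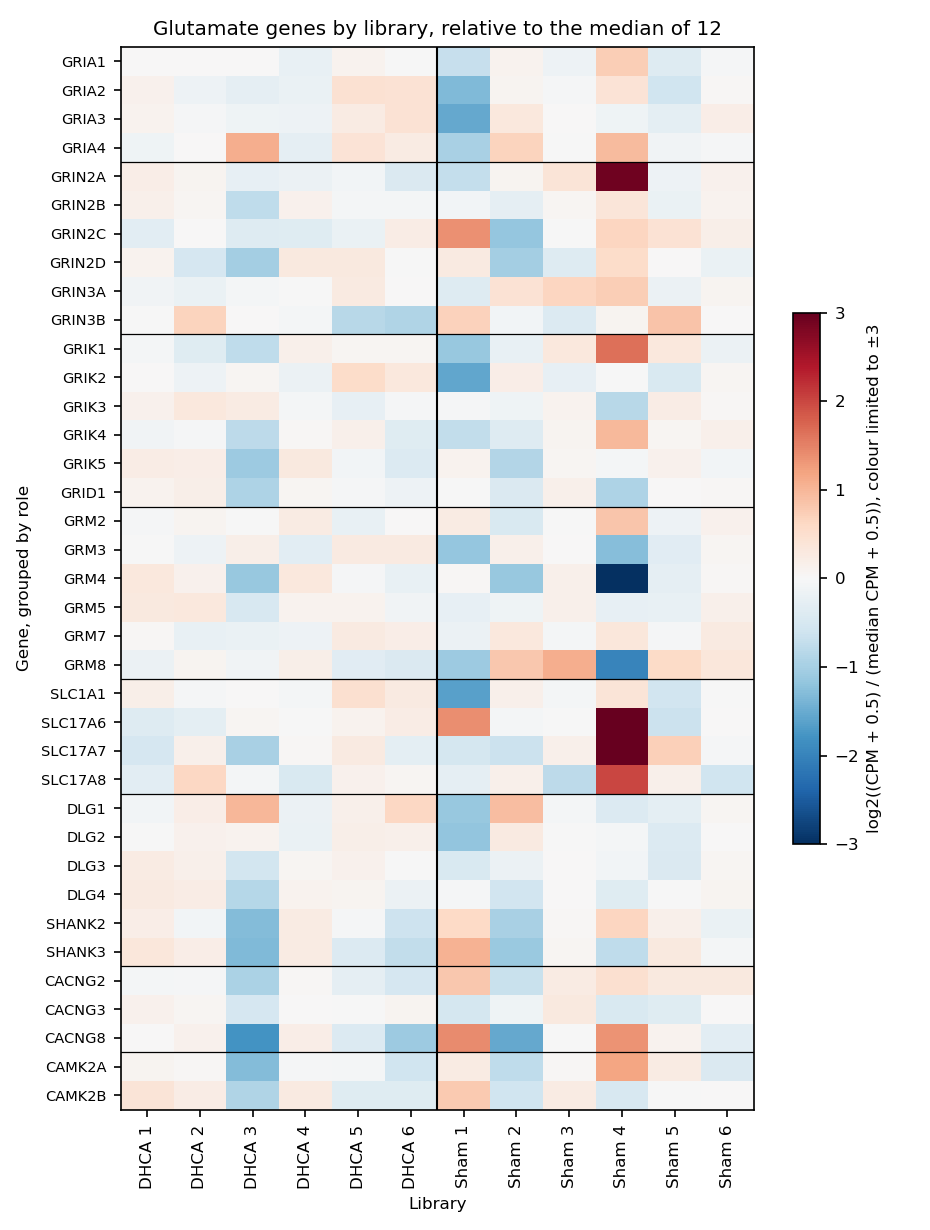
Level of the 37 glutamate genes (rows, grouped by role) in each library (columns, DHCA left of the line and Sham right), as log2 of CPM plus 0.5 over the median of the 12 libraries plus 0.5. Sham 4 is strongly high for SLC17A6, SLC17A7 and GRIN2A and low for GRM4 and GRM8. DHCA 3 and Sham 2 share low values for SHANK2, SHANK3, CACNG2 and CACNG8.

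Other genes of the glutamate synapse gave the same count. Of 59 listed, 53 were tested and 0 were called by edgeR, by limma-voom or by DESeq2, which gave no adjusted p for DLGAP1 and GRM6. At an unadjusted p under 0.05 edgeR gave 2 higher and 0 lower in DHCA (3.77%, against 7.9% of all genes). Without Sham 4 it gave 3 higher and 1 lower (7.55%, against 7.12% of all genes), again with 0 called. Their median log2 fold change was 0.090, against -0.0030 over all genes. CACNG5, a further gene of the TARP family, averaged 29.3 ± 8.57 CPM in DHCA and 19.0 ± 5.02 CPM in sham (log2 difference 0.63, SE 0.23, edgeR adjusted p = 0.459), with 0.53 without Sham 4. CAMK4, a nuclear calcium-dependent kinase, averaged 360.1 ± 85.0 CPM in DHCA and 221 ± 101 CPM in sham (0.70, SE 0.28, adjusted p = 0.534), with 0.54 without Sham 4. CPLX1, which clamps vesicle fusion, had a log2 fold change of -0.52 (SE 0.24, adjusted p = 0.637), and -0.44 without Sham 4. The astrocytic transporter genes, which clear most glutamate from the synapse, were abundant. SLC1A2 averaged 2453 ± 401 CPM in DHCA and 2190.0 ± 432 CPM in sham (0.16, SE 0.18, adjusted p = 0.833), with 0.17 without Sham 4. SLC1A3 averaged 984 ± 229.9 CPM in DHCA and 824 ± 143 CPM in sham (0.25, SE 0.19, adjusted p = 0.795), with 0.23 without Sham 4.

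In the authors' deposited table, 0 of the 37 glutamate genes had an adjusted p under 0.05, against 220 of all 21223 rows. CACNG2 and GRM3, 2 of the 37, had an unadjusted p under 0.05, and the share of all rows at that level was not counted. The direction of the fold changes in that table is not stated. The smallest adjusted p in the authors' deposited table was 0.388, for CACNG2 (log2 fold change -0.56, standard error 0.25). The printed sign equalled that of DHCA minus sham here in 34 of the 35 genes tested here, and both tables come from the same study. SLC17A7 had -1.37 (standard error 0.92) in the authors' deposited table, against -5.11 here. No source used here names the libraries behind the authors' values.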

How the data were processed

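Striatal RNA of 6 DHCA and 6 sham piglets was sequenced on a HiSeq 1500 after TruSeq library preparation, per the labels' protocols. The authors made the deposited raw counts per gene with featureCounts 1.5.1 over exons of Sscrofa11.1, with no strand option, per the file headers, so overlapping antisense reads are not separated. No source used here names the aligner. Columns were matched to samples by the number and title in the labels, and 6 other library columns were not used. The authors' deposited comparison table gives a mean normalized signal, log2 fold changes, a test statistic (score) and p-values, per the file headers. DESeq2 is named in the submitters' processing notes. Gene names came from that table; for markers and other synapse genes it does not name, a RefSeq-based table of identifiers was used.

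Counts were analysed in R 4.3.3 with edgeR 4.0.16 (filterByExpr, TMM, robust quasi-likelihood F test, group as the only term). P-values were Benjamini-Hochberg adjusted over all tested genes, with calls made below 0.05. Standard errors come from the F statistic. CPM without Sham 4 keeps the scaling of all 12 libraries, while fold changes without it were refitted. CPM per kb divides by exonic length. The steps were tested on simulated data. 1 CPM stands for 1.50 to 13.7 counts per library. Pairs within a group differed by 10.7 to 177 in chi-square per degree of freedom, so no library looked deposited more than once within its group. Pairs of a DHCA and a sham library were not compared in this way.

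The members and lists were chosen with earlier results of these data known. Genes given with full values are, in each of 8 roles, the one with the smallest p and the one with the highest sham level per kb, and the 5 whose sham mean moves most without Sham 4, which makes 16. GRM8 is given with full values outside this rule, added after its values were seen. Of the other synapse genes, 1 that the rule names is not reported here. Alternatives were other size factors, DESeq2 1.42.0, limma 3.58.1 voom with sample quality weights, no filter or a filter of 1 CPM in 6 libraries, a replicate block, leaving out each library or Sham 1, 4 and 5 together, leaving out mitochondrial genes, and a threshold of 0.10.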

Additional observations from a re-analysis of the deposited data

Results flagged for a closer look

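In 12 of 84 group values examined, 1 library lay far from the other 5 of its group by Dixon's criterion, which chance alone meets in about 1 of 20 groups. Sham 4 accounts for 7 of the 12. It had 838 CPM of SLC17A7 (next sham library 7.99 CPM), 367 CPM of GRIN2A (next 64.0), 1784 CPM of CAMK2A (next 934), 24.6 CPM of GRIK1 (next 9.44), 13.4 CPM of SLC17A8 (next 3.33) and 11.9 CPM of SLC17A6 (next 1.55), and its GRIN2A share was 36.2% (next 11.02%). DHCA 3 was lowest of DHCA for GRIN2B, at 227 CPM (next 364), and for CACNG3, at 37.5 CPM (next 53.6). Sham 2 was lowest of sham for GRIK5, at 91.0 CPM (next 159). DHCA 4 had 389 CPM of GRIA1 (next 452), and the CAMK2A share in DHCA 5 was 55.3% (next 46.9%).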

How the results depend on the processing

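No glutamate gene was called under any alternative that gave it an adjusted p; DESeq2 gave none for GRIN2A and SLC17A7. The smallest adjusted p of a member ranged from 0.107 (DESeq2) to 0.893 (replicate block). The count of all genes called, 26, was 181 with DESeq2, 207 with limma-voom, 8 with the replicate block, 1 without Sham 1, 4 and 5 and 55 at a threshold of 0.10. It ranged from 9 (without DHCA 2) to 51 (without Sham 2) over the fits without 1 library, with 10 without Sham 3 or Sham 4, 11 without Sham 5, 13 without DHCA 1 and 12 without DHCA 3 or DHCA 4. The number of members with no overlap, 0, was 1 (GRM8) without Sham 1, 4 and 5, where 3.4% of all genes did not overlap, and 0 to 1 without 1 library (CACNG2, without Sham 2, where 2.44% of all genes did not overlap; 1.19% to 1.71% without another library). The labels do not say whether the shared numbers in the titles pair the libraries. Deviations of same-numbered libraries correlated at -0.388 to 0.338, and 1 of 6 DHCA libraries was closest to its own number. These values cannot exclude a paired design, since single libraries that stand apart also set the deviations.

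Of 735 alternative fold changes of members 680 kept their sign and 55 turned, all of them uncalled, and the cause was not tested. Without Sham 1, 4 and 5 the log2 fold change was 0.011 for GRIA1, -0.096 for GRIA3, 0.075 for GRIN3B, -0.030 for GRID1, 0.12 for GRM2, -0.019 for GRM3, -0.0067 for GRM5, 0.43 for SLC17A8, -0.041 for DLG1, -0.040 for DLG2, 0.15 for SHANK2, 0.12 for SHANK3, -0.094 for CACNG3, 0.17 for CACNG8, 0.11 for CAMK2A and 0.011 for CAMK2B. With limma-voom it was 0.048 for GRIA1, -0.059 for GRIA4, 0.0055 for GRIN2B, 0.37 for SLC17A8, 0.056 for SHANK2, 0.094 for SHANK3 and 0.076 for CAMK2B. GRIN2D had -0.013 with DESeq2 size factors, -0.038 with upper-quartile factors, -0.00043 with DESeq2, -0.014 with the replicate block and -0.011 without mitochondrial genes. GRIK5 had -0.028 with upper-quartile factors and -0.018 with the block, and GRIA1 0.00071 with no filter and 0.062 with the block. Over the fits without 1 library GRIA1 ranged from -0.12 to 0.19, GRIA4 from -0.17 to 0.27, GRIN2B from -0.12 to 0.024, GRIN2D from -0.16 to 0.19, GRIK5 from -0.10 to 0.15, GRID1 from -0.062 to 0.18, GRM2 from -0.28 to 0.051, SLC17A8 from -0.72 to 0.34, SHANK3 from -0.40 to 0.057 and CAMK2B from -0.23 to 0.067. Depth limits GRIN2C, GRIN3B, GRM2 and the vesicular transporter genes, at a few counts in the shallow libraries.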

Other observations

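GRIN1 encodes the subunit that every NMDA receptor contains, and its name is absent from the authors' deposited table. The identifier that the reference table pairs with GRIN1, ENSSSCG00000039834, has 0 counts in all 12 libraries, which allows up to 0.220 CPM in the deepest and 2.00 CPM in the shallowest, counting error only. In the same libraries GRIN2B was at 227 to 492 CPM. The limits hold for reads assigned to that identifier, and whether it captures the GRIN1 transcripts was not tested, so they give no level of GRIN1.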
